A study of Homo sapiens and Mus musculus with 12 samples.

Results

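TGM2, G0S2, AOX1 and LOXL4 are 4 genes of metabolism and extracellular matrix selected on how their RNA changed with ponatinib in 2 breast cancer cell lines. They were chosen by the fold changes with ponatinib in these libraries: TGM2, G0S2 and AOX1 were lower with ponatinib in the human line and higher in the mouse line, and LOXL4 was higher mainly in the human line. They are 4 of 9838 genes tested in both lines under a shared symbol, and each matched 1 identifier per species, 8 in all. All 8 passed the filter on low counts. Because the ponatinib contrast chose them, their levels and fold changes are given below as a description, with no test.

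Transglutaminase 2, encoded by TGM2, is a calcium-dependent enzyme that cross-links proteins inside and outside cells and also binds fibronectin and integrins at the cell surface. LOXL4 is a member of the lysyl oxidase family, secreted copper-dependent amine oxidases that start the cross-linking of collagen and elastin. G0S2 is a small protein of lipid droplets that inhibits the triglyceride lipase ATGL (PNPLA2), and AOX1 is a cytosolic aldehyde oxidase that needs a molybdenum cofactor and oxidizes aldehydes and nitrogen heterocycles, among them drugs and retinaldehyde.

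MDA-MB-231 is a human triple-negative breast cancer line and 4T1 a mouse mammary carcinoma line, and both were labelled as wild-type epithelial cells of the breast. Cells of each line received DMSO alone or 1 µM ponatinib, an inhibitor of several tyrosine kinases, for 24 h, which gave 4 groups of 3 RNA-seq libraries, 12 in all. Each species is represented by 1 line, so that species and line cannot be told apart. The labels do not say that the 3 libraries of a group came from separate cultures, and p-values therefore measure the spread between these libraries, which may be technical. Deposited counts per gene summed to between 15012884 and 17301760 per library in MDA-MB-231 and between 17800675 and 18951493 in 4T1. All 7 epithelial markers reached 1 CPM (a count scaled to the library's TMM-normalized total) in 4T1 and 6 of 7 did in MDA-MB-231, where CDH1 (E-cadherin) had 0 counts with DMSO. The summed epithelial markers of MDA-MB-231 were 2073 to 2523 CPM with DMSO and 3037 to 3845 CPM with ponatinib, and the 5 fibroblast markers 0.265 to 0.712 and 8.47 to 10.8 CPM. In that line the 5 mesenchymal markers summed to 1770 to 1959 CPM with DMSO and 1058 to 1262 CPM with ponatinib, and the 3 breast receptors to 92.9 to 107.0 and 167.2 to 177.6 CPM. In 4T1 the fibroblast markers summed to 2.89 to 4.76 and 1.28 to 1.74 CPM and the 4 endothelial markers to 3.22 to 5.19 and 1.03 to 1.5 CPM, while the ranges of the summed epithelial, mesenchymal, receptor and leukocyte markers overlapped between the treatments. The 5 adipocyte markers summed to 0.503 to 0.597 CPM with DMSO and 1.37 to 1.7 CPM with ponatinib in MDA-MB-231, and to 24.4 to 28.3 and 18.9 to 20.0 CPM in 4T1, with ADIPOQ at 0 in MDA-MB-231 and Lep at 0 in 4T1. In MDA-MB-231 a mean of 1 CPM was reached by 1 of 3 receptors with either treatment, and with ponatinib by 1 of 5 fibroblast and 1 of 5 adipocyte markers. In 4T1 it was reached by 1 of 5 fibroblast and 1 of 5 adipocyte markers with either treatment, and by 1 of 4 endothelial markers with DMSO. At most 1 gene of each of these sets was at that level, so the sums do not describe whole sets. The part of the marker shifts in the results below was not tested.

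The RNA of TGM2 was reduced by ponatinib in MDA-MB-231 and increased in 4T1. TGM2 (ENSG00000198959) lies on the minus strand of hg38 at chr20:38127385-38166578, and Tgm2 (ENSMUSG00000037820) on the minus strand of GRCm39 at chr2:157958322-157988359. In MDA-MB-231, TGM2 measured 325.0, 312.3 and 331.1 CPM in the DMSO libraries and 71.6, 66.6 and 73.2 CPM in the ponatinib libraries. The groups were far apart, with means of 322.8 ± 9.58 and 70.5 ± 3.42 CPM (SD, n = 3), and the ponatinib mean was 4.58-fold lower, a log2 fold change of -2.19 (SE 0.08). In 4T1, Tgm2 measured 78.4, 63.1 and 68.8 CPM with DMSO and 210.7, 176.5 and 181.4 CPM with ponatinib. Every ponatinib library was above every DMSO library, and the means of 70.1 ± 7.73 and 189.5 ± 18.5 CPM (SD, n = 3) differed 2.70-fold, a log2 fold change of 1.43 (SE 0.09).

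G0S2 had the deepest fall of the 3 genes that were lower in MDA-MB-231, and the smallest rise of the same 3 in 4T1. G0S2 (ENSG00000123689) is on the plus strand of hg38 at chr1:209675412-209676390, and G0s2 (ENSMUSG00000009633) on the minus strand of GRCm39 at chr1:192949563-192956177. G0S2 measured 366.1, 330.4 and 321.0 CPM in MDA-MB-231 with DMSO and 49.6, 46.6 and 42.2 CPM with ponatinib. The DMSO mean of 339.2 ± 23.8 CPM was 7.35-fold above the ponatinib mean of 46.1 ± 3.76 CPM (SD, n = 3), a log2 fold change of -2.88 (SE 0.09). In 4T1, the DMSO libraries held 17.0, 12.6 and 16.9 CPM and the ponatinib libraries 27.8, 22.8 and 25.6 CPM. The groups did not overlap, but they stood closer together than for TGM2, at 15.5 ± 2.54 and 25.4 ± 2.47 CPM (SD, n = 3), a 1.64-fold rise or a log2 fold change of 0.71 (SE 0.13).

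AOX1 stood between TGM2 and G0S2 in the size of its change in each line. It lies on the plus strand of hg38 at chr2:200586014-200677064 (ENSG00000138356), and Aox1 on the plus strand of GRCm39 at chr1:58068908-58145995 (ENSMUSG00000063558). AOX1 measured 57.4, 72.0 and 72.8 CPM with DMSO and 10.3, 12.4 and 11.1 CPM with ponatinib in MDA-MB-231. DMSO replicate 1 was lower than the other DMSO libraries, and even so the groups were far apart, at 67.4 ± 8.71 and 11.3 ± 1.02 CPM (SD, n = 3), a 5.98-fold decrease or a log2 fold change of -2.58 (SE 0.12). Aox1 in 4T1 measured 19.0, 18.2 and 19.4 CPM with DMSO and 42.1, 38.1 and 36.2 CPM with ponatinib. The means of 18.9 ± 0.600 and 38.8 ± 3.04 CPM (SD, n = 3) differed 2.06-fold, a log2 fold change of 1.04 (SE 0.10), with no overlap. Mice have further aldehyde oxidase genes beside Aox1 that people lack in working form. Over the 6 libraries of 4T1, Aox1 had 3247 counts, Aox2 had 33, Aox3 had 36 and Aox4 had 21, so that nearly all aldehyde oxidase reads of this line were counted for Aox1.

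LOXL4 went the other way in MDA-MB-231. It lies on the minus strand of hg38 at chr10:98247690-98268194 (ENSG00000138131), and Loxl4 on the minus strand of GRCm39 at chr19:42580711-42601252 (ENSMUSG00000025185). It measured 4.44, 5.57 and 5.47 CPM with DMSO in MDA-MB-231, from 67, 86 and 87 counts, and 52.7, 48.5 and 48.3 CPM with ponatinib. The mean rose 9.65-fold from 5.16 ± 0.624 to 49.8 ± 2.51 CPM (SD, n = 3), a log2 fold change of 3.27 (SE 0.12). In 4T1, Loxl4 was already at 125.3, 117.3 and 116.2 CPM with DMSO and reached 162.2, 150.4 and 150.2 CPM with ponatinib. This 1.29-fold rise from 119.6 ± 4.99 to 154.3 ± 6.83 CPM (SD, n = 3; log2 fold change 0.37, SE 0.07) also left no overlap between the groups. In bulk samples such as these, fewer cells that hold an RNA and less of it per cell cannot be told apart.

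**Figure D1:**
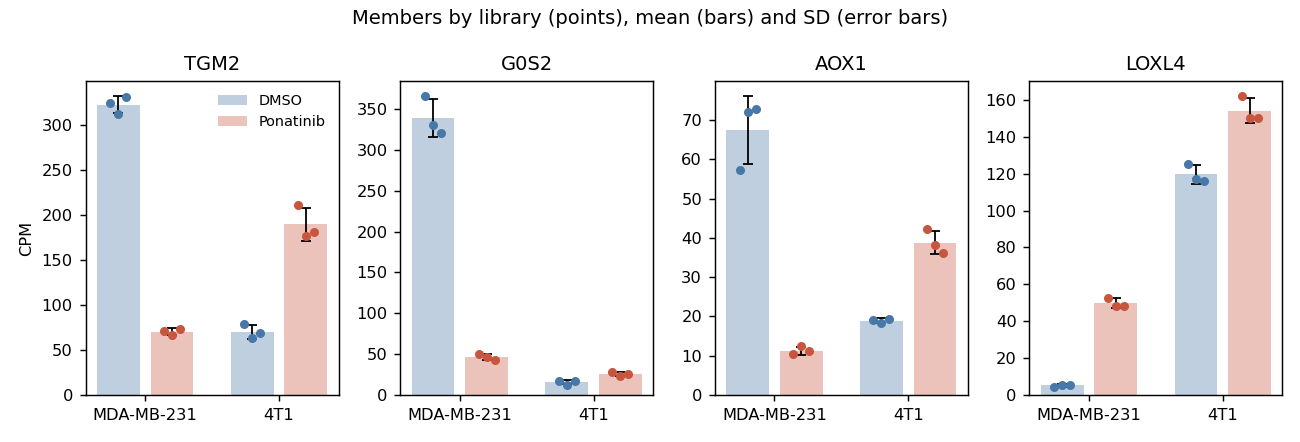
CPM (vertical axis, linear from 0, a separate scale for each gene) of TGM2, G0S2, AOX1 and LOXL4 in MDA-MB-231 and 4T1 with DMSO (blue) and ponatinib (red); points are single libraries, bars the mean and error bars the SD of 3 libraries. TGM2, G0S2 and AOX1 are higher with DMSO in MDA-MB-231 and higher with ponatinib in 4T1, while LOXL4 is higher with ponatinib in both lines.

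The libraries of the groups did not overlap for any of the 8 genes. Such separation was common, since it held for 60.4% of the 14610 genes tested in MDA-MB-231 and for 63.4% of the 13286 tested in 4T1. Ponatinib lowered 26.8% and raised 27.2% of all tested genes of the human line, and 29.4% and 29.5% of those of the mouse line, at a Benjamini-Hochberg adjusted p below 0.05 in edgeR's quasi-likelihood test. In MDA-MB-231, the log2 fold changes of G0S2, AOX1 and TGM2 lay at percentiles 0.301, 0.39 and 0.602 of all tested genes and that of LOXL4 at percentile 99.4. In 4T1 the 4 genes stood less far out, at percentiles 95.0 for Tgm2, 90.9 for Aox1, 84.1 for G0s2 and 71.8 for Loxl4.

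The 3 opposing genes had almost the same difference between the lines, although their changes within each line differed. The difference, 4T1 minus MDA-MB-231 on the log2 scale, was the interaction of line and treatment in a joint fit of all 12 libraries. That fit had its own scaling, so the difference is not the exact subtraction of the fold changes given for each line. It was 3.56 (SE 0.13) for TGM2, 3.52 (SE 0.16) for G0S2, 3.55 (SE 0.16) for AOX1 and -2.97 (SE 0.13) for LOXL4. The fall in MDA-MB-231 went from TGM2 over AOX1 to G0S2 and the rise in 4T1 from G0S2 over AOX1 to TGM2, so that the gene with the smallest fall had the largest rise. Opposite changes were seen in a minority of genes: 542 of 9838, or 5.51%, were lower in MDA-MB-231 and higher in 4T1, 497 (5.05%) had the reverse pattern, and 1205 (12.2%) were higher in both. Ordered by the smaller of both absolute changes, TGM2 was in place 8 of the 542, AOX1 in place 22 and G0S2 in place 63. The 7 genes ahead of TGM2 were FGF1, GNGT2, BMP2, XDH, DDIT4L, SLC22A4 and MYO7B. Most of them stood at low levels in at least 1 line. In MDA-MB-231 the higher group mean was 0.949 CPM for BMP2, 3.03 for DDIT4L, 3.41 for XDH and 4.69 for FGF1. In 4T1 it was 1.7 CPM for DDIT4L, 2.42 for GNGT2, 5.16 for BMP2 and 5.61 for SLC22A4. MYO7B reached 17.6 and 34.8 CPM in the human and mouse line, and TGM2 322.8 and 189.5 CPM. FGF1, a fibroblast growth factor, led with log2 fold changes of -3.52 in the human and 2.67 in the mouse line. Among the 1205 genes higher in both lines, LOXL4 was in place 6 by the excess of its change in MDA-MB-231. This excess, by subtraction of the fold changes fitted in each line, was 2.9 on the log2 scale. Ahead of LOXL4 were ELF3, CCN5, RAB17, PTK2B and SCNN1A.

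**Figure D2:**
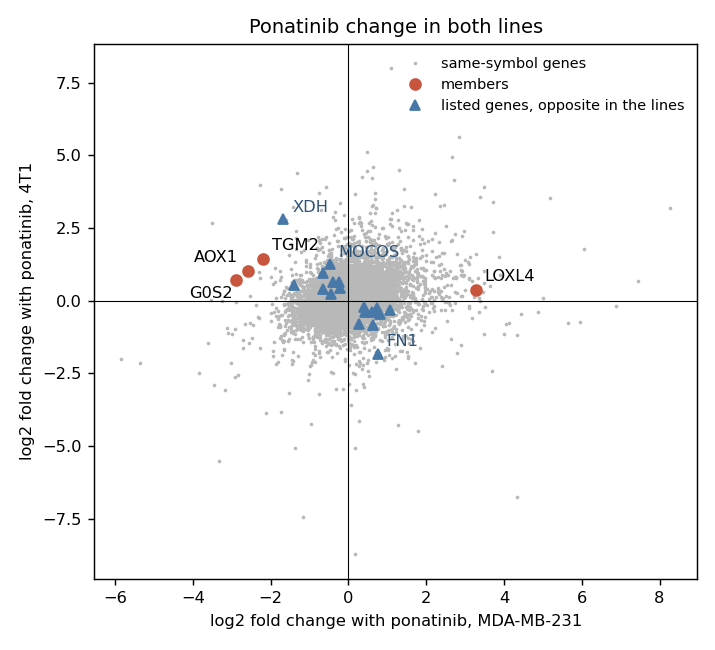
Log2 fold change with ponatinib in MDA-MB-231 (horizontal axis) and in 4T1 (vertical axis) for the 9838 genes tested in both lines (grey), the 4 selected genes (red circles) and the 18 genes of the functional lists that changed in opposite directions (blue triangles). TGM2, G0S2 and AOX1 lie to the upper left, with log2 fold changes of -2.88 to -2.19 against 0.71 to 1.43, and LOXL4 lies at the right near the horizontal axis.

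Levels of different genes were compared as TPM, a scale per length computed from the counts and the summed length of each gene's exons. In MDA-MB-231 with DMSO, G0S2 led at 1206 ± 18.3 TPM, above TGM2 at 126.8 ± 7.74, AOX1 at 39.1 ± 7.09 and LOXL4 at 4.50 ± 0.779 TPM (SD, n = 3), and no neighbours in this order overlapped. With ponatinib the order was G0S2 at 171.8 ± 6.35, LOXL4 at 45.2 ± 0.649, TGM2 at 29.0 ± 2.21 and AOX1 at 6.83 ± 0.907 TPM. LOXL4 thus moved from the last place to the second, a place it held only with the summed exon length, since it came behind TGM2 with the longest transcript, the canonical transcript or the coding length. In 4T1 with DMSO the order was Loxl4 at 81.3 ± 2.63, Tgm2 at 59.6 ± 5.18, G0s2 at 13.8 ± 1.95 and Aox1 at 6.62 ± 0.119 TPM. With ponatinib, Tgm2 led at 172.4 ± 20.0 TPM, with Loxl4 at 112.1 ± 7.22, G0s2 at 24.2 ± 2.62 and Aox1 at 14.5 ± 1.46 TPM. Neighbours in these orders did not overlap either. The place of G0s2 depends on its length, as the summed exons cover 4558 bases in the mouse and 876 in the human annotation. By coding length G0s2 had 62.9 TPM in untreated 4T1, in second place and within the spread of Loxl4 at 63.4 TPM.

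**Figure D3:**
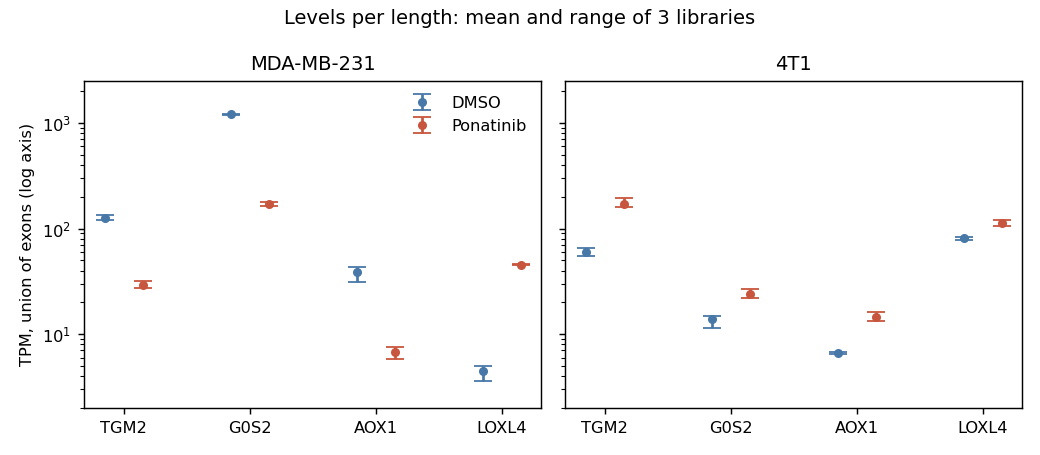
TPM by the summed exon length (log axis) of the 4 genes with DMSO (blue) and ponatinib (red) for the human (left panel) and mouse line (right panel); points are means and bars reach from the lowest to the highest of 3 libraries. G0S2 is the highest in MDA-MB-231 with either treatment, and LOXL4 goes from 4.50 to 45.2 TPM there.

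Reads could be shared with genes on the other strand, because the strand setting of the counting is not given in the sources used here. TGM2 shares 5.0% of its exon bases with RPRD1B in the human and 7.7% in the mouse annotation, and Tgm2 shares 13.2% with the noncoding gene Gm20412, which had 0 counts. RPRD1B was lower in MDA-MB-231 (log2 fold change -0.42, SE 0.11, adjusted p = 0.0057 by edgeR) and Rprd1b lower in 4T1 (-0.23, SE 0.08, adjusted p = 0.0185), the second being opposite to Tgm2. G0s2 shares 2.6% of its exon bases with Lamb3, a laminin chain gene with far more reads, at 648.7 CPM with DMSO and 769.9 CPM with ponatinib in 4T1 (log2 fold change 0.25, SE 0.09, adjusted p = 0.0230 by edgeR). The count of G0s2 in 4T1 is uncertain for this reason. The share of exon bases does not limit how far, and the part of Lamb3 in the count was not tested. The human G0S2 shares no exon base with LAMB3 or with the long noncoding RNA HSD11B1-AS1, which had 102 counts over 6 libraries. Human LOXL4 shares 4.2% of its exon bases with a long noncoding RNA (ENSG00000230928) that had 7 counts over 6 libraries. Loxl4 shares 1.3% of its exon bases with R3hcc1l, which measured -0.11 (SE 0.11) on the log2 scale.

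The promoters of human AOX1 and of LOXL4 in both species are shown, because these genes stand for the opposing and the one-sided pattern. Each sequence is the reference genome's 250 bases before a start site, 5′ to 3′ in the direction of transcription, and not read from these cells. The human ones are from RefSeq (GRCh38.p14) at chr2:200585764-200586013 (plus strand) for AOX1 and chr10:98268195-98268444 (minus strand) for LOXL4. The mouse one was taken from GRCm39 before the start of the canonical GENCODE vM39 transcript, at chr19:42601253-42601502 (minus strand) for Loxl4. Capitals mark exact matches on either strand to the letters of 3 motifs. The E-box, which contains the hypoxia core ACGTG, was searched as CACGTG, the SP1 motif as GGGCGG, and the NF-kB motif as GGGA and CC with any 4 bases between them. There was no match in the 3 sequences to the cyclic AMP response element, searched as TGACGTCA, to the STAT motif as TTCNNNGAA, to the ETS motif as CCGGAAG, to the TATA box as TATAAA, or to the direct repeats bound by PPAR and retinoic acid receptors.
AOX1: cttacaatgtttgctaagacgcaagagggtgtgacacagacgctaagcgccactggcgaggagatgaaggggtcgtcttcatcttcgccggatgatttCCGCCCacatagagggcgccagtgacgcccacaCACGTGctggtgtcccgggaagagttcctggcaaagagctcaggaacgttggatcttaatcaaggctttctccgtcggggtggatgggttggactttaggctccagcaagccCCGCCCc
LOXL4: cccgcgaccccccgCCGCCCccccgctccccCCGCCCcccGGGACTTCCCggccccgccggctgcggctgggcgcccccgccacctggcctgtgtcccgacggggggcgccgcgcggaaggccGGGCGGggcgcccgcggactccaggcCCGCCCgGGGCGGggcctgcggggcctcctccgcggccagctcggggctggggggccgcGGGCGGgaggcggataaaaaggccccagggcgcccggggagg
Loxl4: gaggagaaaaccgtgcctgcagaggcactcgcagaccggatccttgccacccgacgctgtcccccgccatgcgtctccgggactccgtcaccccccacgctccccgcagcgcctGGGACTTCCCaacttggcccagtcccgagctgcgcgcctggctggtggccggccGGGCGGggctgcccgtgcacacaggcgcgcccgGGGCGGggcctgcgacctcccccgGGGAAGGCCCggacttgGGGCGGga

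The human AOX1 promoter held 1 E-box and 2 SP1 matches at 57.6% GC. Among all promoter windows, an E-box was held by 6.34% of 35116 human and 6.26% of 21770 mouse ones. The LOXL4 promoters were rich in GC, at 86.4% in the human and 75.2% in the mouse, where the median of all promoters was 58.0% and 53.2%. They held 6 and 3 SP1 matches and 1 and 2 NF-kB matches, of which one NF-kB match is the same letter for letter in both species. SP1 letters were held by 42.6% of human and 36.3% of mouse promoters and NF-kB letters by 22.6% and 18.2%. Neither G0S2 nor G0s2 held a match to any of these motifs, Tgm2 held 1 NF-kB match, and no promoter of human TGM2 was analysed here. A match describes letters only.

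Other genes that use or make the molybdenum cofactor were measured next to AOX1, from a list of 16 symbols. Of 10 tested in MDA-MB-231, 6 fell and 2 rose at an adjusted p below 0.05, with a median log2 fold change of -0.24 where all tested genes had 0.02. Of 9 tested in 4T1, none was lower and 5 were higher, with a median of 0.26 where all tested genes had 0.00. The count of 6 was sensitive to scaling and to 1 library, since 2 were lower with total counts and 3 without MDA-MB-231 DMSO replicate 3. XDH encodes xanthine oxidoreductase, a molybdenum enzyme of purine breakdown related to AOX1. It measured 2.39, 4.08 and 3.78 CPM with DMSO and 0.820, 1.21 and 1.15 CPM with ponatinib in MDA-MB-231, a low level at which it fell by 1.68 on the log2 scale (SE 0.29, adjusted p = 0.000469, edgeR). In 4T1, Xdh measured 4.31, 4.72 and 6.34 CPM with DMSO and 37.1, 37.97 and 33.6 CPM with ponatinib, a rise of 2.82 (SE 0.14, adjusted p = 7.31e-10, edgeR). The groups overlapped in neither line, and the change differed between the lines by 4.42 on the log2 scale (SE 0.30, adjusted p = 1.44e-09, edgeR interaction test), where 41.9% of 12488 genes differed at the threshold of 0.05.

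MOCOS encodes the sulfurase that puts the final sulfur on the cofactor of AOX1 and XDH. It measured 41.9, 49.1 and 50.8 CPM with DMSO and 31.6, 32.6 and 37.6 CPM with ponatinib in MDA-MB-231, which gave a log2 fold change of -0.48 (SE 0.11, adjusted p = 0.00242, edgeR). In 4T1, Mocos measured 7.54, 6.84 and 8.53 CPM with DMSO and 18.2, 17.9 and 18.3 CPM with ponatinib, a log2 fold change of 1.25 (SE 0.12, adjusted p = 9.11e-07, edgeR). Its groups overlapped in neither line, and the difference between the lines was 1.65 (SE 0.16, adjusted p = 1.48e-07, edgeR interaction test). MOCS1, which acts at the first step of cofactor synthesis, changed in the same pair of directions, by -0.23 (SE 0.08, adjusted p = 0.0285) in MDA-MB-231 and 0.43 (SE 0.09, adjusted p = 0.00074) in 4T1, with a difference of 0.59 (SE 0.12, adjusted p = 0.000634, edgeR). The fall of MOCS1 in MDA-MB-231 lost the threshold with total counts (-0.13) and without either DMSO replicate 1 or 3 or ponatinib replicate 2 or 3 (-0.21 to -0.23). MOCS2, MOCS3 and gephyrin (GPHN), which act in later steps of synthesis, were picked out after their values were known. Their log2 fold changes in MDA-MB-231 were -0.25, -0.40 and -0.44 (adjusted p = 0.0179, 0.0393 and 0.0149, edgeR). None of them passed the threshold with total counts (-0.15, -0.31 and -0.35), GPHN did not without MDA-MB-231 DMSO replicate 3 (-0.37), and MOCS3 did not without DMSO replicate 2 or 3 or ponatinib replicate 1 (-0.44, -0.35 and -0.24) or with 10 counts required in every library (-0.38). Their 4T1 values of 0.20, 0.13 and -0.14 did not pass the threshold. Not every molybdenum enzyme followed this pattern: the amidoxime reductase MTARC2 rose in both lines, by 0.76 and 0.91, and the sulfite oxidase SUOX rose by 0.59 in MDA-MB-231 and measured -0.06 in 4T1.

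**Figure D4:**
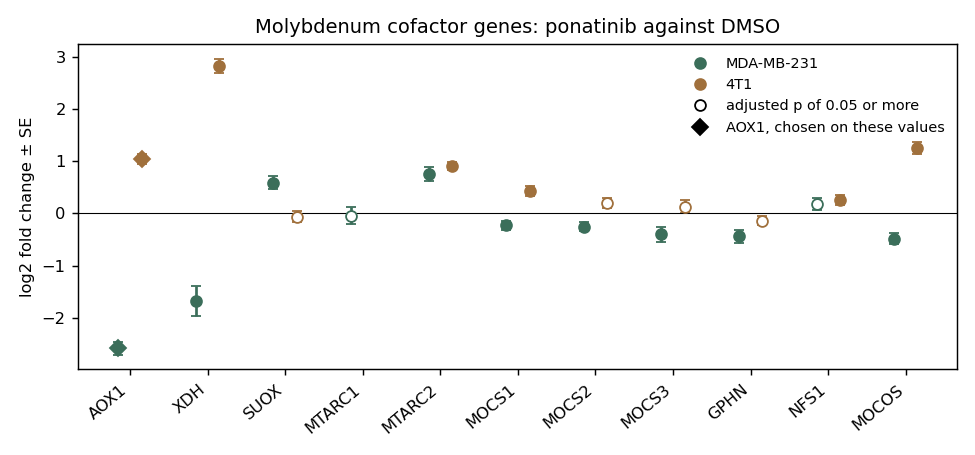
Log2 fold change with ponatinib (vertical axis, points with SE) of AOX1 (diamonds) and the genes of the molybdenum cofactor list (circles) in MDA-MB-231 (green) and 4T1 (brown); open circles did not pass an adjusted p-value of 0.05. XDH, MOCS1 and MOCOS lie below 0 in MDA-MB-231 and above 0 in 4T1, like AOX1, while MTARC2 lies above 0 in both.

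Genes of lipolysis and lipid droplets were compared with G0S2 from a list of 23. In each line 17 were tested: 5 fell and 5 rose in MDA-MB-231 (median log2 fold change -0.01), and 7 fell and 7 rose in 4T1 (median 0.18). Among all tested genes, 26.8% fell and 27.2% rose in MDA-MB-231, and 29.4% and 29.5% did in 4T1. On this list, the lower genes in MDA-MB-231 were 2 with total counts and 3 without MDA-MB-231 ponatinib replicate 3. The higher ones of the list there were 3 when 10 counts were required in every library. PNPLA2, the lipase that G0S2 inhibits, and its activator ABHD5 were picked out for their link with G0S2 after their values were known. PNPLA2 measured 169.3, 125.7 and 136.1 CPM with DMSO and 237.5, 200.9 and 174.6 CPM with ponatinib in MDA-MB-231, and 77.8, 62.4 and 60.2 and then 101.4, 94.9 and 107.2 CPM in 4T1. It rose in both lines, where G0S2 went in opposite directions, with log2 fold changes of 0.51 (SE 0.13, adjusted p = 0.00521) and 0.60 (SE 0.10, adjusted p = 9.27e-05, edgeR). ABHD5 fell in MDA-MB-231, from 28.6 ± 5.69 to 15.8 ± 2.55 CPM (log2 fold change -0.86, SE 0.16, adjusted p = 0.000744, edgeR), and measured 23.2 ± 1.70 and 26.9 ± 2.11 CPM in 4T1 (0.22, adjusted p = 0.0894).

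Among the other lipid droplet genes, Plin2, the main droplet coat protein outside fat tissue, fell in 4T1 from 1303 ± 67.5 to 551.9 ± 10.2 CPM (SD, n = 3; log2 fold change -1.24, SE 0.08, adjusted p = 6.28e-09, edgeR), and PLIN2 in MDA-MB-231 measured 90.8 ± 5.2 and 100.9 ± 3.97 CPM (0.15, adjusted p = 0.117). HILPDA, another protein inhibitor of ATGL, fell in 4T1 by 1.38 on the log2 scale (SE 0.09, adjusted p = 1.99e-08). Its value of -0.59 in MDA-MB-231 (SE 0.20, adjusted p = 0.0286, edgeR) lost the threshold with total counts (-0.50) and without DMSO replicate 1 or 3 or ponatinib replicate 3 (-0.38 to -0.63). Lipa, the lysosomal acid lipase, rose in 4T1 from 39.9 ± 0.499 to 171.6 ± 5.21 CPM (log2 fold change 2.10, SE 0.07, adjusted p = 2.23e-11, edgeR). LIPA rose in MDA-MB-231 as well, by 0.66 (SE 0.11, adjusted p = 0.000283, edgeR). PLIN4 rose in both lines from under 2 CPM, by 1.54 in the human and 2.21 in the mouse line, and the first of these lost the threshold without DMSO replicate 3 (1.11) or ponatinib replicate 2 (1.24).

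Of 19 genes of triglyceride synthesis, 17 were tested in MDA-MB-231, with 5 lower and 5 higher, and 18 in 4T1, with 4 lower and 8 higher. A pair of acyl-CoA synthetases, which activate fatty acids, changed in the directions of G0S2. ACSL5 went from 44.9 ± 2.0 to 28.6 ± 2.64 CPM in MDA-MB-231 and from 295.0 ± 32.0 to 387.2 ± 34.1 CPM in 4T1 (SD, n = 3), log2 fold changes of -0.65 and 0.39 that differed by 0.97 (SE 0.14, adjusted p = 1.28e-05, edgeR interaction test). ACSL1 changed by -0.41 and 0.65, a difference of 0.98 (SE 0.17, adjusted p = 9.68e-05), and its fall in MDA-MB-231 lost the threshold with total counts (-0.31) and without DMSO replicate 2 or 3 (-0.41 and -0.33). ACSL4 fell in both, by 0.68 and 0.78. Of 30 genes of PPAR signaling and fatty acid oxidation, 21 were tested in each line, of which 2 fell and 12 rose in MDA-MB-231, while 3 fell and 12 rose in 4T1. One of the 2, PPARG (log2 fold change -0.33), lost the threshold with total counts (-0.24) and without DMSO replicate 2 or 3 or ponatinib replicate 3 (-0.27 to -0.32), which left 1. The other was ANGPTL4, a secreted inhibitor of lipoprotein lipase, at 10.1, 5.89 and 6.73 CPM with DMSO and 0.757, 0.764 and 0.438 CPM with ponatinib (log2 fold change -3.54, SE 0.30, adjusted p = 2.15e-06, edgeR). The ponatinib libraries held 32 ANGPTL4 counts in all. The gene left the test when 10 counts were required in every library, which also left 1 lower gene. In 4T1, Angptl4 was at 176.0 ± 7.53 and 177.8 ± 14.7 CPM (0.01, adjusted p = 0.886). PPARGC1A, a coactivator of mitochondrial genes, rose in MDA-MB-231 from 1.96 ± 0.491 to 14.7 ± 0.382 CPM (2.9, SE 0.18, adjusted p = 1.93e-07, edgeR). Ppargc1a also rose in 4T1, by 0.87 (SE 0.16, adjusted p = 0.000307, edgeR).

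The list of transglutaminases held 9 genes beside TGM2. In MDA-MB-231, 3 were tested and all 3 were higher: TGM1, the enzyme that cross-links the epidermal cell envelope, the clotting factor gene F13A1 and EPB42, whose product has lost the enzyme activity. TGM1 measured 2.72, 2.85 and 2.64 CPM with DMSO and 10.2, 10.96 and 10.4 CPM with ponatinib, a log2 fold change of 1.94 (SE 0.15, adjusted p = 1.13e-06, edgeR) against -2.19 for TGM2. F13A1 and EPB42 rested on 16 and 26 DMSO counts in all, and TGM1 alone remained in the test when 10 counts were required in every library. No other transglutaminase passed the filter on low counts in 4T1, so that Tgm2 was the one tested there.

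Of 14 substrates and binding partners of transglutaminase 2, 13 were tested in each line. Of these, 7 fell and 4 rose in MDA-MB-231, where 26.8% of all tested genes fell and 27.2% rose. In 4T1, 7 fell and 3 rose, where 29.4% of all tested genes fell and 29.5% rose. The 7 in MDA-MB-231 became 4 with total counts and 4 without MDA-MB-231 DMSO replicate 2. In 4T1, the 7 became 3 with total counts, and the 3 became 5 with total counts and 5 without 4T1 DMSO replicate 1. ADGRG1, an adhesion receptor that binds transglutaminase 2, moved like TGM2: it measured 70.1, 71.5 and 71.9 CPM with DMSO and 27.6, 25.0 and 28.8 CPM with ponatinib in MDA-MB-231, and 117.4, 109.7 and 112.0 and then 166.0, 159.3 and 166.9 CPM in 4T1. No libraries overlapped, the log2 fold changes were -1.39 (SE 0.09) and 0.54 (SE 0.07), and the difference was 1.85 (SE 0.11, adjusted p = 1.48e-10, edgeR interaction test). FN1 encodes fibronectin, a matrix substrate and binding partner of the enzyme, and moved against TGM2 in each line. It measured 109.0, 120.8 and 139.6 CPM with DMSO and 184.3, 211.7 and 224.7 CPM with ponatinib in MDA-MB-231 (log2 fold change 0.75, SE 0.10, adjusted p = 9.05e-05), and in 4T1 it fell from 3414 ± 322.9 to 969.5 ± 139.7 CPM (-1.82, SE 0.11, adjusted p = 4.66e-09). The difference was -2.64 (SE 0.16, adjusted p = 3.46e-10, edgeR interaction test). MFGE8, an integrin ligand, changed the same way as FN1, by 1.07 and -0.31, a difference of -1.45 (SE 0.12, adjusted p = 2.91e-08), although its fall in 4T1 lost the threshold with total counts (-0.19). The endocytic receptor LRP1 rose in both lines, by 1.73 and 1.47, and so did the proteoglycan SDC2, by 1.34 and 0.86.

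Of the other lysyl oxidases tested in MDA-MB-231, LOXL1 rose, and LOX, LOXL2 and LOXL3 did not pass the test. The family and its helpers made a list of 11, of which 8 were tested in MDA-MB-231 with none lower and 4 higher (median log2 fold change 0.56), and 4 in 4T1 with none lower and 3 higher (median 0.54). These family members were singled out after their values were known, because they are the closest relatives of LOXL4. In MDA-MB-231, LOX measured 52.5, 58.1 and 59.2 CPM with DMSO and 51.7, 58.3 and 55.9 CPM with ponatinib, and LOXL2 302.6, 312.1 and 308.6 and then 293.7, 299.0 and 322.6 CPM. Their groups overlapped, with log2 fold changes of -0.03 (SE 0.09, adjusted p = 0.76) and -0.01 (SE 0.07, adjusted p = 0.898, edgeR). LOXL3 stood at -0.31 (SE 0.18, adjusted p = 0.161), and LOXL1 rose by 0.65 (SE 0.15, adjusted p = 0.00332, edgeR), from 14.1 ± 1.45 to 22.1 ± 4.52 CPM (SD, n = 3). In 4T1, Loxl2 was the one other family member that passed the filter, at 46.2 ± 1.32 and 47.6 ± 2.22 CPM (0.04, adjusted p = 0.674). BMP1, a protease that releases active lysyl oxidase and trims procollagen, rose in both lines, by 0.91 (SE 0.09, adjusted p = 4.48e-06) and 0.45 (SE 0.12, adjusted p = 0.0059, edgeR).

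Of 25 genes for collagen, elastin and the enzymes that modify them, 18 were tested in MDA-MB-231 with 5 lower and 5 higher, and 17 in 4T1 with 8 lower and 5 higher. With the replicate number as a block, 8 were lower in MDA-MB-231. That count of 5 was 2 with total counts and 3 without MDA-MB-231 DMSO replicate 3 or ponatinib replicate 2 or 3, as it was when 10 counts were required in every library, and the 5 higher in 4T1 were 3 without 4T1 DMSO replicate 3 or ponatinib replicate 3. COL1A1, a chain of type I collagen, rose in MDA-MB-231 from 27.8 ± 2.99 to 74.9 ± 2.12 CPM and in 4T1 from 3.42 ± 0.574 to 8.22 ± 0.251 CPM (SD, n = 3; log2 fold changes 1.43 and 1.26). PLOD2, a lysyl hydroxylase of collagen telopeptides, fell in both, by 0.70 and 0.89. COL5A1, P3H2 and COLGALT1 changed in opposite directions: COL5A1 by 0.82 and -0.44, the collagen prolyl hydroxylase P3H2 by 0.62 and -0.85, and the collagen galactosyltransferase COLGALT1 by -0.24 and 0.65. Their differences between the lines were -1.33 (adjusted p = 2.75e-07), -1.54 (adjusted p = 4.60e-06) and 0.82 (adjusted p = 5.65e-06, edgeR interaction test), and the fall of COLGALT1 lost the threshold with total counts (-0.15).

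Aldehyde dehydrogenases oxidize aldehydes to acids, as AOX1 does, but with a nucleotide cofactor. Of 20 listed, 13 were tested in MDA-MB-231 with 3 lower and 6 higher. In 4T1, 17 were tested with 3 lower and 13 higher (median log2 fold change 0.61), where 29.4% of all tested genes fell and 29.5% rose. ALDH1A3, an enzyme that makes retinoic acid, fell in both lines, from 7.35 ± 1.54 to 3.6 ± 0.496 CPM in MDA-MB-231 and from 101.0 ± 2.55 to 15.3 ± 1.95 CPM in 4T1, log2 fold changes of -1.03 (SE 0.20, adjusted p = 0.00109) and -2.72 (SE 0.10, adjusted p = 2.66e-11, edgeR). ALDH3B1 rose in both lines, in MDA-MB-231 from 11.1 ± 1.36 to 77.7 ± 5.74 CPM (2.80, SE 0.11, adjusted p = 6.96e-09). In 4T1 it went from 24.8 ± 1.56 to 76.1 ± 3.87 CPM (1.62, SE 0.09, adjusted p = 1.44e-09, edgeR). In the wider retinoid list of 32, 13 were tested in MDA-MB-231 with 3 lower and 5 higher, and 15 in 4T1 with 4 lower and 5 higher. With the replicate number as a block, 8 were higher in MDA-MB-231, and the 3 lower ones were 1 with total counts, 1 without MDA-MB-231 DMSO replicate 2 and 1 without ponatinib replicate 3. DHRS3, which turns retinaldehyde back into retinol, rose in both, by 2.45 and 1.64, and Stra6, a retinol transporter, rose in 4T1 from 7.25 ± 0.342 to 73.4 ± 1.90 CPM (3.34, SE 0.10, adjusted p = 7.42e-12, edgeR). The receptor RARG changed by 0.61 and -0.40, a difference of -1.08 (adjusted p = 3.21e-07), and its partner RXRA by 0.74 and -0.26, a difference of -1.07 (adjusted p = 5.84e-07, edgeR interaction test). The fall of Rxra in 4T1 lost the threshold with total counts (-0.14) and without ponatinib replicate 2 or 3 (-0.21 and -0.22).

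TGF-beta is a known inducer of matrix cross-linking enzymes, and its ligands, receptors and targets were listed as 23 genes, all tested in both lines. In MDA-MB-231, 5 fell and 8 rose, and the replicate block gave 8 that fell. In 4T1, 12 fell and 8 rose. TGFB2, one of the ligands, rose in both lines, by 1.16 and 1.81. PMEPA1, an inhibitor of the pathway and itself induced by the pathway, moved like TGM2, by -0.66 and 0.94, a difference of 1.53 (SE 0.12, adjusted p = 6.27e-09, edgeR interaction test). Smaller opposite changes were those of SKI (-0.45 and 0.22), SMAD2 (0.39 and -0.20), LTBP4 (0.42 and -0.40) and TGIF1 (0.28 and -0.80). In 4T1, the change of Smad2 lost the threshold without DMSO replicate 2 or ponatinib replicate 2 or 3 (-0.20 to -0.17), with no filter (-0.19) and with total counts (-0.08), and that of Ski without DMSO replicate 3 or ponatinib replicate 1 or 2 (0.19 to 0.22). The fall of Ltbp4 lost it without any 1 library other than DMSO replicate 3 (-0.42 to -0.30), with total counts (-0.29), with DESeq2 (-0.41) and with 10 counts required in every library (-0.39), and the rise of TGIF1 in MDA-MB-231 without DMSO replicate 3 (0.26) or ponatinib replicate 2 (0.23).

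**Figure D5:**
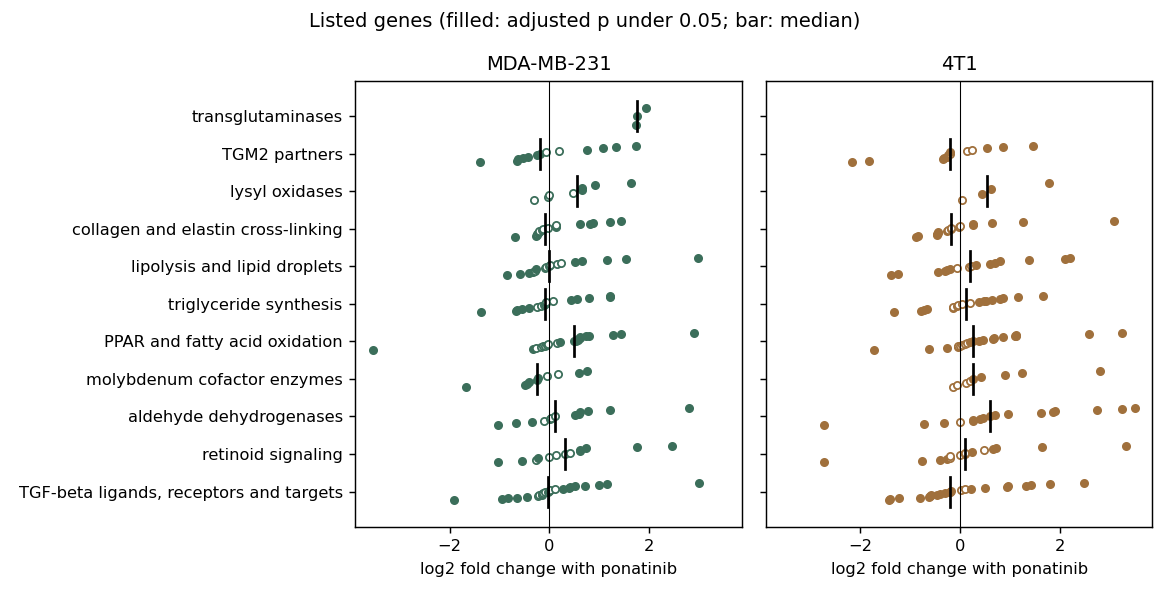
Log2 fold change with ponatinib (horizontal axis) of every tested gene of the 11 functional lists in MDA-MB-231 (left, green) and 4T1 (right, brown); filled points passed an adjusted p-value of 0.05 and black bars are list medians. Cidea, at 37 counts with DMSO and 0 with ponatinib in 4T1, is left out, and most medians lie near 0.

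Over all 11 lists, 128 genes were tested in both lines. Of these, 9 (7.03%) were lower in MDA-MB-231 and higher in 4T1, where 5.51% of all genes tested in both were, and 9 (7.03%) had the reverse pattern, where 5.05% of all were.

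Genes whose profile was most like each of the 4 were taken from 9599 genes, by the root mean square difference over the 12 libraries of log2 CPM after subtraction of each line's DMSO mean. These distances are a description, since the selected genes differ strongly between the groups and the libraries of a line share one DMSO mean. AOX1 was nearest to TGM2 (0.302, Pearson r = 0.985) and to G0S2 (0.282, r = 0.986). The gene nearest to AOX1 itself was CD274, which encodes PD-L1 (0.252, r = 0.991), with log2 fold changes of -2.28 in the human and 0.80 in the mouse line, ahead of G0S2 and TGM2. Next to AOX1, TGM2 had the BMP-binding protein gene BMPER (0.349) and the purine receptor gene P2RY2 (0.358), and G0S2 had CD274 (0.336) and ANGPTL4 (0.461), which did not rise in 4T1. LOXL4 was nearest to SRGAP3 (0.184, r = 0.994), the kinase gene PTK2B (0.203) and TPPP3 (0.264), whose log2 fold changes were 3.35, 3.45 and 3.33 in the human and 0.11, 0.31 and 0.28 in the mouse line.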

How the data were processed

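RNA-seq counts of 12 libraries were used. According to the methods, the authors removed adapters and poly-N reads, aligned the rest with HISAT2 to hg38 or GRCm39, counted reads per gene with HTSeq and tested with DESeq2. Deposited were whole-number counts for each gene, not normalized. Tool versions, annotation and strand setting are not given in the sources used here. Of 63677 human identifiers, 81.9% matched GENCODE v44 (99.3% of counts), and of 47729 mouse ones 91.1% matched GENCODE vM39 (99.8%).

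Each line was fitted in edgeR 4.0.16 (R 4.3.3, limma 3.58.1; filterByExpr, TMM, quasi-likelihood test, Benjamini-Hochberg over all tested genes), and the interaction of line and treatment over 12488 genes of the same symbol. Differences between the lines are from this interaction fit, with its own TMM scaling, and need not equal the subtraction of the fits per line. SE is the absolute log2 fold change over the root of F. CPM (TMM-scaled) and TPM were computed from the counts. The biological coefficient of variation came to 0.099 (MDA-MB-231) and 0.0869 (4T1).

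The members and the lists were chosen with earlier results of these data known. Per list and line, the 2 largest rises and falls past the threshold with a mean of at least 1 CPM could be named. So could genes that changed in opposite directions, the 10 leading opposing genes and the 3 most alike per member. The value of a named gene in the other line was given beside it in places. Other genes are marked. Deviations of same-numbered DMSO and ponatinib libraries correlated at 0.345, 0.111 and 0.133 (MDA-MB-231) and 0.213, 0.119 and 0.115 (4T1), all over 0.1, and on these values alone the numbers were treated as pairs in the replicate block. A library with another number correlated more in 2 of 6 cases (0.163 for MDA-MB-231 replicate 2 and 0.119 for 4T1 replicate 3). All SE and p-values without mention of the block are unpaired. Steps were tested on simulated data. Alternatives were DESeq2 1.42.0, its size factors in edgeR, total counts, no filter, 10 counts in every library, a replicate block, each library left out, and other gene lengths, of which the canonical transcript was added after seeing the data. The values of 1 listed gene and 1 promoter are not reported here.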

Additional observations from a re-analysis of the deposited data

Results flagged for a closer look

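TGM2, G0S2 and AOX1 moved in opposite directions in the lines in every library. They were chosen for this, and the difference was not tested. Their log2 differences in the joint fit (4T1 minus MDA-MB-231) were 3.56, 3.52 and 3.55. Of the listed genes, 18 passed the threshold in opposite directions in the lines and differed by the edgeR interaction test. The log2 difference was positive, lower in MDA-MB-231 and higher in 4T1, for XDH (4.42), ADGRG1 (1.85), MOCOS (1.65), PMEPA1 (1.53), ACSL1 (0.98), ACSL5 (0.97), COLGALT1 (0.82), MOCS1 (0.59) and SKI (0.59). It was negative for FN1 (-2.64), P3H2 (-1.54), MFGE8 (-1.45), COL5A1 (-1.33), TGIF1 (-1.15), RARG (-1.08), RXRA (-1.07), LTBP4 (-0.90) and SMAD2 (-0.66). Adjusted p-values of these differences lay between 1.48e-10 and 0.000634. Of these genes, MOCS1, ACSL1, COLGALT1 and TGIF1 in MDA-MB-231 and Mfge8, Rxra, Smad2, Ski and Ltbp4 in 4T1 lost the threshold within that line under at least 1 alternative.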

How the results depend on the processing

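No member reversed direction under any alternative. Over all alternatives the log2 fold change in MDA-MB-231 ranged from -2.23 to -2.10 for TGM2, -2.94 to -2.78 for G0S2, -2.70 to -2.49 for AOX1 and 3.16 to 3.36 for LOXL4, and in 4T1 from 1.35 to 1.55, 0.58 to 0.83, 0.97 to 1.16 and 0.33 to 0.48. With total counts, the values that moved by more than the spread between replicates were -2.10 for TGM2 in MDA-MB-231 and 1.16 for AOX1 and 0.48 for LOXL4 in 4T1, the listed genes lower in MDA-MB-231 were 22 and not 40, and the median of all genes shifted from 0.02 to 0.11 (MDA-MB-231) and from 0.00 to 0.12 (4T1). The share of calls that were higher then went from 50.4% to 60.0% and from 50.1% to 62.3%. Leaving out single libraries, the difference of TGM2 between the lines ranged from 3.52 to 3.70, the highest without 4T1 DMSO replicate 1. By longest transcript, coding length or canonical transcript, TGM2 was in place 2 and LOXL4 in place 3 in MDA-MB-231 with ponatinib. By coding length, TGM2 was in place 3 and G0S2 in place 2 in 4T1 with DMSO, and G0S2 in place 2 and LOXL4 in place 3 there with ponatinib. Of 1550 alternative values of listed genes named by the stated rule, 50 lost significance, in 14 of 121 results, and 0 reversed. MOCS2, MOCS3 and GPHN, which that rule did not name, are outside this tally and also lost the threshold under some alternatives. The replicate block, which pairs same-numbered libraries, gave 4873 lower and 4802 higher genes in MDA-MB-231, where the main test gave 3918 and 3975, and 4310 and 4310 in 4T1. The causes were not tested.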

Other observations

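Genes within 200 kb of the members were looked at after the members' values were known. On the strand of LOXL4, PYROXD2 and HPS1 rose in both lines: PYROXD2, 115 kb away in the human genome, by 1.89 in MDA-MB-231 (SE 0.11, adjusted p = 1.12e-07, edgeR) and 1.55 in 4T1 (SE 0.14, adjusted p = 4.17e-07), and HPS1, a lysosome-related organelle gene 143 kb away, by 1.10 (SE 0.08, adjusted p = 4.95e-07) and 0.83 (SE 0.08, adjusted p = 6.92e-07). Of the tested neighbours, 2 of 3 beside LOXL4 rose and none fell in the human line, and 2 of 4 rose and none fell in the mouse line, where 27.2% and 29.5% of all tested genes rose. Beside TGM2, 1 of 3 rose and 2 fell in the human line, and 2 of 4 rose and 1 fell in the mouse line. Beside G0S2, 2 of 6 rose and 1 fell, and 2 of 6 rose and 2 fell, and beside AOX1, 3 of 6 rose and 1 fell, and 2 of 3 rose and 1 fell. Neighbours of the opposing genes did not all move with them. SGO2, 1.92 kb from AOX1, measured -0.15 in MDA-MB-231 (adjusted p = 0.33) and Sgo2a -0.67 in 4T1 (adjusted p = 0.0155), opposite to Aox1. BZW1, 134 kb from AOX1, fell in MDA-MB-231 from 215.7 to 94.4 CPM (log2 fold change -1.19, SE 0.08, adjusted p = 4.07e-07). Its log2 fold change in 4T1 was -0.41. LAMB3, 23.0 kb from human G0S2, fell in MDA-MB-231 from 1430 to 874.4 CPM (-0.71, SE 0.08, adjusted p = 2.61e-05), and in 4T1 Lamb3 rose by 0.25. Lbp, the lipopolysaccharide-binding protein gene 160 kb from Tgm2, rose in 4T1 from 24.9 to 128.8 CPM (2.37, SE 0.08, adjusted p = 2.23e-11).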
